A study of Mus musculus with 7 samples.

Results

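The transcripts of 10 genes of insulin signalling were followed in 3T3-L1, mouse fibroblasts that the labels describe as differentiated into fat cells, given exosomes of adipose tissue (AT-Exos). They are Insr, Igf1r, Irs1, Irs2, Pik3r1, Pik3r3, Pik3ca, Akt1, Akt2 and Eif4ebp1, chosen by name, and they make up 10 of the 34745 genes of the deposited table. All 10 were found under a single row each, and all 10 passed the filter on low values in every comparison. Exosomes had been prepared from 3 depots of wild-type B6 mice, the inguinal white (iWAT), the visceral white (vWAT) and the brown (BAT) fat, and the mice had eaten either low-fat (LFD) or high-fat (HFD) chow. A control and these 6 kinds of exosome gave 7 groups of 1 library, and a name such as LFD-vWAT-Exos gives the diet and then the depot. Treated cells received exosomes for 48 h, and the labels describe adipocytes at days 8 to 10 of differentiation. All groups had been differentiated with insulin, IBMX and dexamethasone and were kept in medium with insulin. The labels call the control untreated, whereas supplementary legends of the study name PBS buffer, so an effect of the vehicle cannot be told apart from that of the exosomes. The line is 1 genotype, the labels do not say how many mice gave each exosome preparation, and with 1 library per group no difference between 2 groups had a replicate check.

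Insulin and the insulin-like growth factors bind related receptor tyrosine kinases, INSR and IGF1R, which phosphorylate the docking proteins IRS1 and IRS2. These recruit phosphoinositide 3-kinase (PI3K), a pair of a regulatory subunit (from Pik3r1, Pik3r2 or Pik3r3) and a catalytic subunit (from Pik3ca, Pik3cb or Pik3cd), and the lipid it makes activates the AKT kinases. In fat cells AKT drives glucose uptake and lipid storage, restrains the FOXO transcription factors, which are known to switch on Insr and Irs2 in several cell types, and acts through mTORC1, which phosphorylates the translation repressor 4E-BP1 (Eif4ebp1). These steps run largely through phosphorylation of proteins and lipids, and only RNA was measured here.

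The promoters of the IRS pair are shown because both hold the same pair of short elements, a CACGTG E-box followed by TGTTTTG, the core of the insulin response element that FOXO proteins bind. The 250 bases before the start of each gene, from RefSeq on build GRCm38.p6, are written 5′ to 3′ on the gene's own strand, with every CACGTG and TGTTTTG in capitals. The Irs1 stretch is chr1:82291440-82291689 on the minus strand and the Irs2 stretch is chr8:11008930-11009179 on the minus strand.
Irs1: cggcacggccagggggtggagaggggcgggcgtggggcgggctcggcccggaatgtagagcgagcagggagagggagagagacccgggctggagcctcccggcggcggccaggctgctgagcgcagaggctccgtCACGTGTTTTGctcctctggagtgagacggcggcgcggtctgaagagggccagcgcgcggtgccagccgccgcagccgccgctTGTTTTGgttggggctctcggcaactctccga
Irs2: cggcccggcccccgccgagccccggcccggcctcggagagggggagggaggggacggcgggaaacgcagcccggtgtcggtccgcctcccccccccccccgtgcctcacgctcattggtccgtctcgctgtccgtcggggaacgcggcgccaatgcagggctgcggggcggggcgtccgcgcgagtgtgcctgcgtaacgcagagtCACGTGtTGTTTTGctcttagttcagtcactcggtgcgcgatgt
The E-box begins 115 bases before the start in Irs1, where it overlaps the TGTTTTG, and 44 bases before the start in Irs2, where a single base separates them. Both motifs were searched on both strands in 300-base RefSeq promoters (250 bases before to 50 after the start). Of 32851 such promoters, 7.15% held CACGTG, 6.28% held TGTTTTG, and 0.408% held both. A TGTTTTG starting within 10 bases after the start of a CACGTG on the same strand was found in 9 promoters (0.0274%) of 8 genes, and Irs1, Irs2 and Irs4 were among them. Promoters were also at hand for Igf1r, Pik3r1, Pik3r3, Pik3ca, Akt1 and Akt2 and held neither CACGTG nor TGTTTTG in this window. Another motif, TGTTTAC, was searched as well and was found in 3.65% of all promoters. It was present in 1 Akt1 promoter and absent from those of Irs1 and Irs2. Insr and Eif4ebp1 were not in the table. The letters are a description of the sequence, and binding was not measured.

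The libraries held 13493560 to 24345291 counts, and the LFD-vWAT-Exos library was both the shallowest and the one that stood apart. Levels are given as CPM, counts brought to a common library total after scaling with TMM factors, 0.950 in LFD-vWAT-Exos and between 1.00 and 1.01 in every other library. Mitochondrially encoded genes took 1.10% of its counts against 2.19% to 2.60% elsewhere. Adipocyte markers were sparse everywhere, with 8 of 11 below 1 CPM in every library, Adipoq, Plin1 and Slc2a4 included. Their summed level was 314 CPM with LFD-vWAT-Exos and 1114 to 1371 CPM in the other 6 libraries. All 6 fibroblast markers were present, at a sum of 15560 CPM against 31175 to 38196 CPM. The markers thus go against the label of mature adipocytes, and the samples are called 3T3-L1 cells here. Macrophage markers summed to 40.4 CPM against 9.48 to 13.8 CPM, with the defining Ptprc, Adgre1 and Itgam below 1 CPM in every library. Endothelial markers summed to at most 2.97 CPM and skeletal muscle markers to at most 0.442 CPM. These values moved with the results on LFD-vWAT-Exos below, and their part in them was not tested. In bulk RNA, fewer cells of a type and less RNA per cell cannot be told apart.

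The LFD-vWAT-Exos library lay outside the range of the other 6 libraries for all 10 genes, in opposite directions also within the substrate and PI3K steps. The share of all genes outside that range was not computed, so the count has no background. This library also differed widely over all genes, as given below. Both receptors, Irs2, Pik3ca and Eif4ebp1 were 1.96 to 3.26 times the median of the other 6 libraries, while Irs1, both PI3K regulatory subunits and Akt1 were 0.209 to 0.678 times that median. Akt2 was at 0.931 times and only narrowly outside, at 60.3 CPM against 62.7 CPM in control, the lowest of the others. Outside this library the genes varied little. Their highest level was 1.09 to 1.33 times their lowest over the other 6 libraries, against a median of 1.24 over 9367 genes with at least 10 CPM, except for Irs1, where it was 2.02 times and larger than for 95.4% of those genes.

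**Figure D1:**
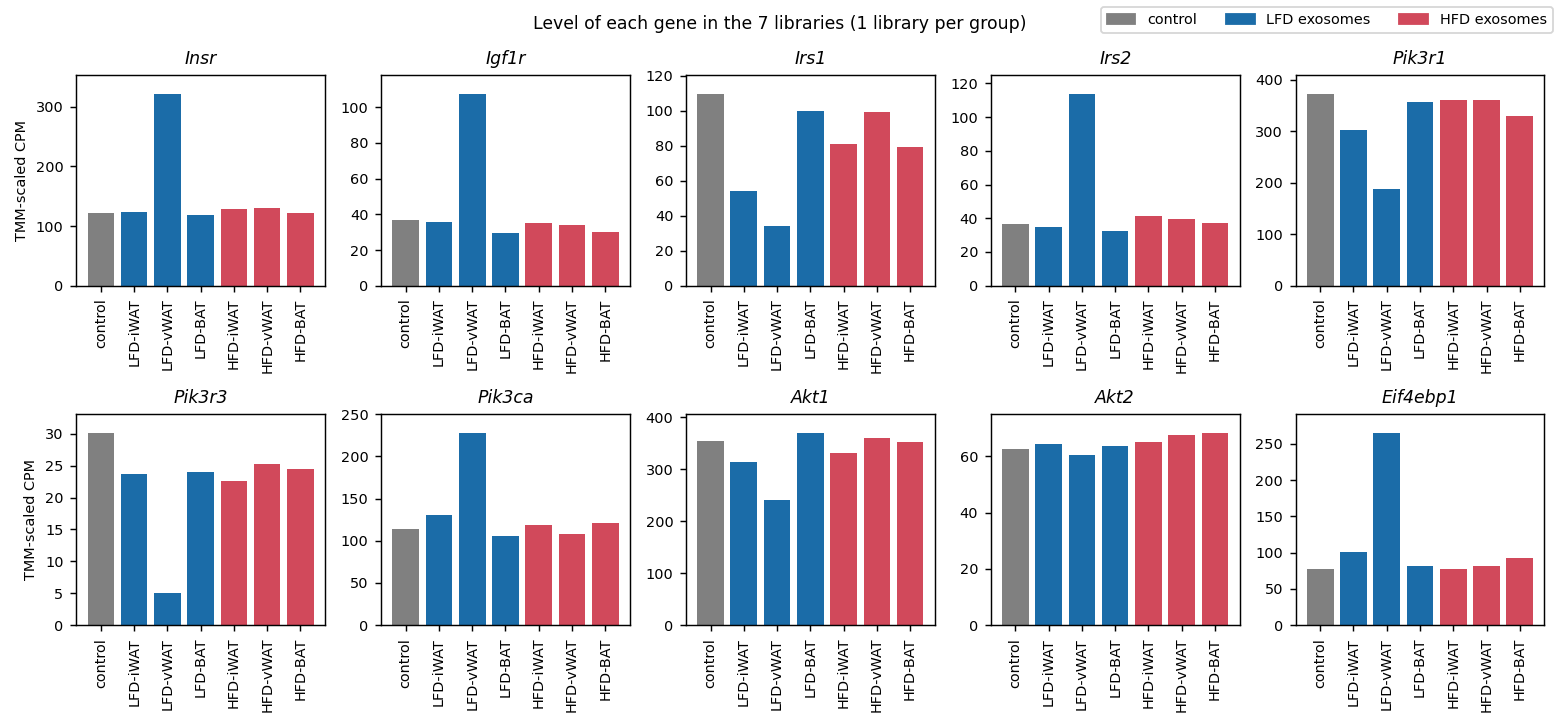
Level of each of the 10 genes (bars, TMM-scaled CPM, each panel with its own axis from 0) in the 7 libraries, 1 library per group, so without error bars. The LFD-vWAT-Exos bar is the highest for Insr, Igf1r, Irs2, Pik3ca and Eif4ebp1 and the lowest for Irs1, Pik3r1, Pik3r3, Akt1 and Akt2. Irs1 was also low with LFD-iWAT-Exos, at 54.4 CPM.

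A gene was called apart between 2 libraries where the levels, after adding a prior count of 2, differed by a log2 ratio of at least 1 and the exact 95% interval of the ratio, which covers counting error only, excluded equal levels. In HFD-vWAT-Exos against LFD-vWAT-Exos 7 of the 10 were apart, 2 higher and 5 lower, where 29.7% of all 12619 genes tested were apart. The same library gave 7 apart against control (5 higher and 2 lower, 30.6% of all genes), 7 against LFD-BAT-Exos (30.0%) and 5 against LFD-iWAT-Exos (29.1%). These comparisons share the LFD-vWAT-Exos library, so their counts repeat a single set of values. In HFD-iWAT-Exos against LFD-iWAT-Exos 0 of 10 were apart, beside 2.54% of all genes, and in HFD-BAT-Exos against LFD-BAT-Exos 0 of 10, beside 1.95%. Against control, 1 was apart with LFD-iWAT-Exos (Irs1, beside 5.09% of all genes). None of the 10 was apart from control with LFD-BAT-Exos (1.76%), HFD-iWAT-Exos (2.91%), HFD-vWAT-Exos (1.98%) or HFD-BAT-Exos (2.27%). Between depots the count was also 0 in LFD-BAT-Exos against LFD-iWAT-Exos (5.13%), HFD-vWAT-Exos against HFD-iWAT-Exos (2.32%), HFD-BAT-Exos against HFD-iWAT-Exos (1.95%) and HFD-vWAT-Exos against HFD-BAT-Exos (1.67%). A count of 0 among 10 genes lies close to what these small shares give.

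**Figure D2:**
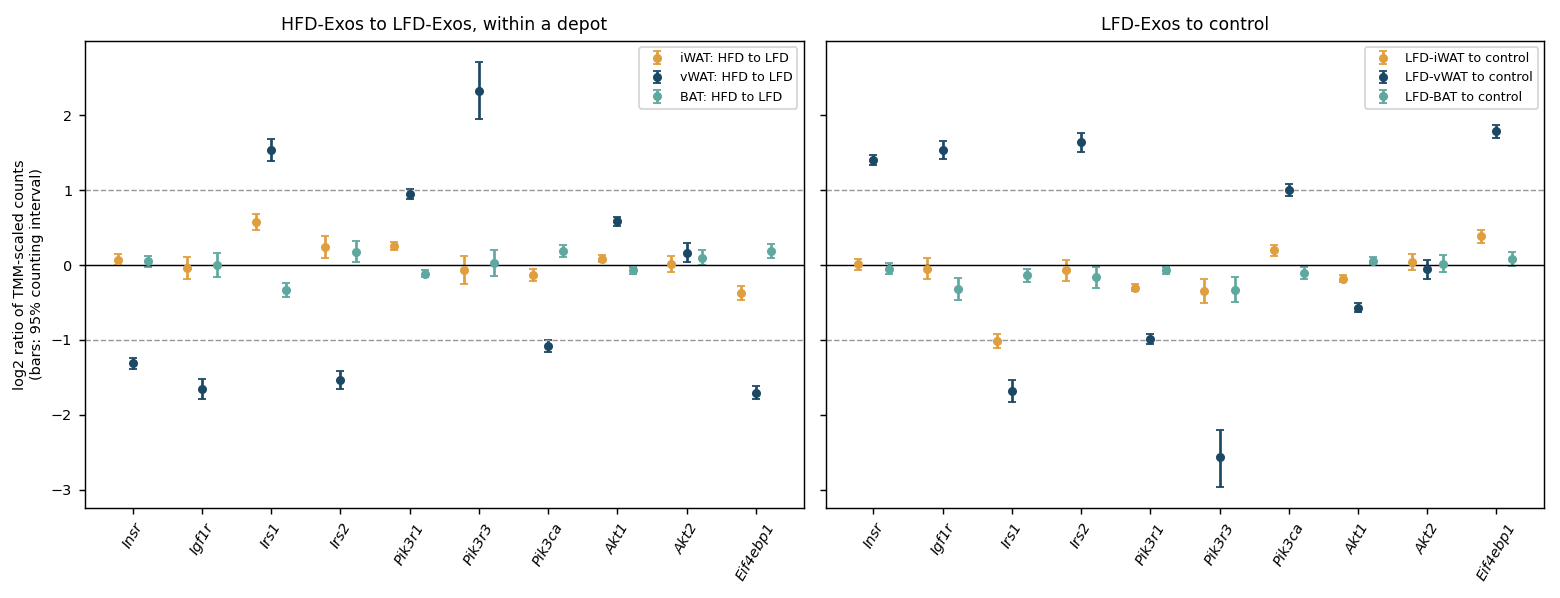
Log2 ratio of TMM-scaled counts (points) with the exact 95% counting interval (bars) for each gene, HFD-Exos to LFD-Exos within each depot (left) and LFD-Exos to control (right), with dashed lines at a log2 ratio of 1 in either direction. The vWAT points lie far from 0 and mirror each other between the panels because both use the LFD-vWAT-Exos library. Irs1 with LFD-iWAT-Exos is the only point of another depot at the dashed line.

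Insr, the insulin receptor, was at 122 CPM in control, 123 with LFD-iWAT-Exos, 322 with LFD-vWAT-Exos, 118 with LFD-BAT-Exos, 129 with HFD-iWAT-Exos, 129.7 with HFD-vWAT-Exos and 122 with HFD-BAT-Exos. The 6 libraries other than LFD-vWAT-Exos had a coefficient of variation of 3.74%, and LFD-vWAT-Exos lay above all of them. It was 2.64 times control (95% counting interval 2.52 to 2.78), and HFD-vWAT-Exos was 0.403 times LFD-vWAT-Exos (0.384 to 0.423). Igf1r, the receptor for insulin-like growth factor 1, was at 37.1 CPM in control, 35.8 with LFD-iWAT-Exos, 108 with LFD-vWAT-Exos, 29.8 with LFD-BAT-Exos, 35.0 with HFD-iWAT-Exos, 34.1 with HFD-vWAT-Exos and 29.9 with HFD-BAT-Exos. LFD-vWAT-Exos was again highest, at 2.90 times control (2.66 to 3.17), and both BAT-Exos libraries were lowest, at 0.804 times control (0.725 to 0.891) for LFD and 0.807 times (0.727 to 0.895) for HFD. The Insr to Igf1r count ratio was therefore above that of control with LFD-BAT-Exos, at 1.20 times (1.07 to 1.35), with HFD-BAT-Exos, at 1.24 times (1.10 to 1.40), and with HFD-vWAT-Exos, at 1.16 times (1.03 to 1.30). With LFD-vWAT-Exos the Insr to Igf1r ratio was 0.910 times that of control (0.823 to 1.01), an interval that includes 1.

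The receptor substrates moved apart from each other. Irs1, the main docking protein of insulin signalling in fat and muscle, was at 109.8 CPM in control, 54.4 with LFD-iWAT-Exos, 34.3 with LFD-vWAT-Exos, 99.98 with LFD-BAT-Exos, 81.3 with HFD-iWAT-Exos, 99.4 with HFD-vWAT-Exos and 79.3 with HFD-BAT-Exos. Control was the highest of the 7 libraries, and since every comparison with control uses that 1 library, the shared direction is 1 observation and not 6. All 6 AT-Exos libraries were below control, each with an interval that excluded 1, from 0.910 times control with LFD-BAT-Exos (0.859 to 0.964) to 0.313 times with LFD-vWAT-Exos (0.282 to 0.346). LFD-iWAT-Exos was next lowest at 0.495 times control (0.463 to 0.529). The neighbours HFD-iWAT-Exos and HFD-BAT-Exos could not be ordered, since their ratio was 0.975 with an interval from 0.909 to 1.05. By diet, Irs1 with HFD-Exos was 1.496 times its level with LFD-Exos from iWAT (1.39 to 1.61) and 2.90 times from vWAT (2.61 to 3.22). From BAT it was 0.793 times (0.744 to 0.844), the opposite direction.

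Irs2, the other widely expressed docking protein and the main one in liver, was at 36.5 CPM in control, 34.9 with LFD-iWAT-Exos, 114 with LFD-vWAT-Exos, 32.6 with LFD-BAT-Exos, 41.2 with HFD-iWAT-Exos, 39.4 with HFD-vWAT-Exos and 37.0 with HFD-BAT-Exos. LFD-vWAT-Exos stood above the 6 others, which spanned 32.6 to 41.2 CPM. It was 3.12 times control (2.86 to 3.40), whereas HFD-vWAT-Exos was 1.08 times control (0.978 to 1.19), an interval that includes 1. Against LFD-vWAT-Exos, HFD-vWAT-Exos was 0.346 times (0.318 to 0.377). From iWAT the diet ratio went the other way, with HFD-Exos at 1.18 times LFD-Exos (1.07 to 1.31), and from BAT as well, at 1.13 times (1.03 to 1.25). The study took Irs2 from a database of miR-200a-3p targets and singled it out by its ratio in these vWAT libraries, so that ratio is not independent evidence.

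In FPKM, which the authors scaled to gene length, Irs1 was 1.32 times Irs2 in control (counting interval 1.22 to 1.43), 1.35 times with LFD-BAT-Exos (1.24 to 1.47) and 1.11 times with HFD-vWAT-Exos (1.03 to 1.20). The balance was the other way with HFD-iWAT-Exos, at 0.868 (0.794 to 0.949), and LFD-iWAT-Exos, at 0.685 (0.629 to 0.748). On counts, which leave out gene length, Irs1 was above Irs2 in both, at 1.97 and 1.56 times. This order in the iWAT libraries therefore rests on the lengths used, which the intervals do not cover. With HFD-BAT-Exos the interval of 0.944 (0.868 to 1.03) included 1. With LFD-vWAT-Exos Irs1 was 0.133 times Irs2 (0.119 to 0.148), and Irs2 made up 88.3% of their summed FPKM against 42.6% to 59.3% elsewhere. The sum itself was 30.4 FPKM there and 14.8 to 21.3 FPKM in the other libraries. Between libraries the count ratio needs neither length nor scaling. Relative to control, the Irs1 to Irs2 count ratio was 0.518 times with LFD-iWAT-Exos (exact conditional interval 0.460 to 0.583), 0.656 times with HFD-iWAT-Exos (0.581 to 0.740), 0.713 times with HFD-BAT-Exos (0.634 to 0.801) and 0.839 times with HFD-vWAT-Exos (0.749 to 0.941). It was 0.100 times with LFD-vWAT-Exos (0.0876 to 0.115) and 1.02 times with LFD-BAT-Exos (0.908 to 1.15). All 6 values are set against the same control library, and the interval with LFD-BAT-Exos included 1.

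**Figure D3:**
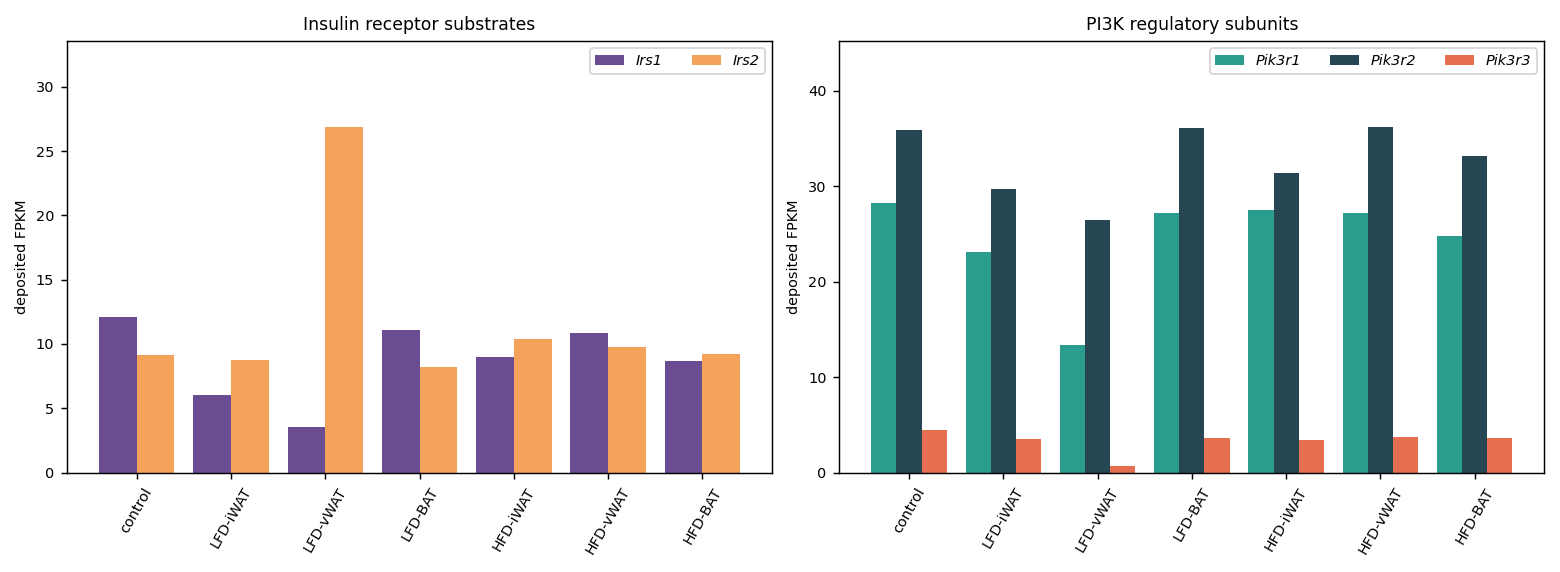
Deposited FPKM (bars) of Irs1 and Irs2 (left) and of Pik3r1, Pik3r2 and Pik3r3 (right) in each of the 7 libraries, 1 per group. Irs2 exceeds Irs1 7.53 times with LFD-vWAT-Exos, and Pik3r3 is the lowest of the regulatory subunits in every library, down to 0.710 FPKM with LFD-vWAT-Exos.

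In GENCODE M21 Irs1 lies on chromosome 1, Insr, Irs2 and Eif4ebp1 on chromosome 8, Igf1r and Akt2 on chromosome 7, Pik3r1 on chromosome 13, Pik3r3 on chromosome 4, Pik3ca on chromosome 3 and Akt1 on chromosome 12. The level of 1 IRS gene against the other in FPKM depends on the gene lengths the authors used. Dividing count by FPKM gave 9144 bases for Irs1, as in GENCODE M21, but 4024 bases for Irs2, where GENCODE M21 has 6323 exon bases with a coding part of 3963 bases. Which bases of Irs2 were counted cannot be told from that length. For Pik3ca the same division gave 13502 bases, above its 9088 exon bases in GENCODE M21, so the authors' gene models differ from it. Annotated exons of the antisense gene Gm9747 cover 30.9% of the Irs1 exon bases, and whether strand was used in counting was not stated. Gm9747 itself had 0 counts in 6 libraries and 4 in HFD-vWAT-Exos.

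The Irs2 3′ untranslated region is shown for the seed matches of the miRNA the study linked to it. The mature miR-200a-3p from RefSeq (GRCm38.p6, chr4:156054911-156054932, minus strand), with the seed (bases 2 to 8) in capitals, and the first matching site in Irs2 (GENCODE M21 transcript, chromosome 8), with the letters that pair with the seed in capitals, read as follows.
mmu-miR-200a-3p: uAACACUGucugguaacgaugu
Irs2 site: ccctggttctgttgtCAGTGTTctgga
The 2329 bases of this region held 4 matches to CAGTGTT, which was found in 17.1% of 20962 annotated 3′ untranslated regions of any length. Pik3ca had 3 matches, Pik3r1 had 2, and Irs1 and Eif4ebp1 had 1 each, while Insr, Igf1r, Pik3r3, Akt1 and Akt2 had 0. Of the genes with a match, Irs2, Pik3ca and Eif4ebp1 were high with LFD-vWAT-Exos and Irs1 and Pik3r1 were low. A link between matches and levels was not tested. For miR-200b-3p, which the study raised beside miR-200a-3p, the match CAGTATT was found in 13.2% of these regions. Pik3ca and Akt2 had 1 such match each, and Irs2 had 0. miRNAs were not measured in these libraries.

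All 3 PI3K regulatory subunits were lowest with LFD-vWAT-Exos, by unequal amounts. Pik3r1, which encodes p85α, was at 373 CPM in control, 302 with LFD-iWAT-Exos, 188 with LFD-vWAT-Exos, 356 with LFD-BAT-Exos, 361 with HFD-iWAT-Exos, 361 with HFD-vWAT-Exos and 329 with HFD-BAT-Exos. LFD-vWAT-Exos was 0.503 times control (0.481 to 0.527), a log2 ratio of -0.99 that fell just short of the 2-fold limit, and LFD-iWAT-Exos was next lowest at 0.812 times (0.786 to 0.837). Pik3r3, which encodes p55γ, was at 30.1 CPM in control, 23.7 with LFD-iWAT-Exos, 5.07 with LFD-vWAT-Exos, 24.01 with LFD-BAT-Exos, 22.7 with HFD-iWAT-Exos, 25.3 with HFD-vWAT-Exos and 24.5 with HFD-BAT-Exos. It had the largest ratio of the 10 genes, with LFD-vWAT-Exos at 0.168 times control (0.128 to 0.217) on 65 counts against 668, and HFD-vWAT-Exos at 4.99 times LFD-vWAT-Exos (3.86 to 6.56). The other 5 AT-Exos libraries were also below the shared control, at 0.753 to 0.841 times, each with an interval that excluded 1. Exons of Gm49337 cover 24.3% of the Pik3r3 exon bases on the same strand, but Gm49337 has no row in the deposited table. How reads of these bases were assigned cannot be told, so the Pik3r3 counts are uncertain. Pik3r2, which encodes p85β and is not among the 10, was at 211 CPM in control, 174 with LFD-iWAT-Exos, 165 with LFD-vWAT-Exos, 211 with LFD-BAT-Exos, 184 with HFD-iWAT-Exos, 215 with HFD-vWAT-Exos and 196 with HFD-BAT-Exos.

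In FPKM the order Pik3r2, Pik3r1, Pik3r3 was the same in all 7 libraries. Pik3r1 was 6.31 times Pik3r3 in control (5.83 to 6.84), 6.51 with LFD-iWAT-Exos (5.98 to 7.09), 7.56 with LFD-BAT-Exos (6.93 to 8.26), 8.12 with HFD-iWAT-Exos (7.35 to 8.999), 7.27 with HFD-vWAT-Exos (6.66 to 7.95) and 6.84 with HFD-BAT-Exos (6.26 to 7.48). With LFD-vWAT-Exos it was 18.9 times (14.7 to 24.5). The shares of the 3 subunits in their summed FPKM were 33.0%, 65.2% and 1.75% for Pik3r1, Pik3r2 and Pik3r3 with LFD-vWAT-Exos. Elsewhere Pik3r1 held 40.2% to 44.2%, Pik3r2 50.4% to 54.0% and Pik3r3 5.37% to 6.53%. Relative to control, the Pik3r1 to Pik3r3 count ratio was 2.99 times with LFD-vWAT-Exos (2.30 to 3.93), and the Pik3r1 to Pik3r2 count ratio was 0.643 times (0.600 to 0.689). Pik3r2 thus kept most of its level, Pik3r1 less of it and Pik3r3 least, each step larger than counting error. The Pik3r1 to Pik3r3 count ratio was also above control's with LFD-BAT-Exos, at 1.20 times (1.06 to 1.35), HFD-iWAT-Exos, at 1.29 times (1.13 to 1.47), and HFD-vWAT-Exos, at 1.15 times (1.02 to 1.30). The length behind the FPKM of Pik3r1 was 13292 bases, above the 10079 exon bases of GENCODE M21, so its level against the other subunits depends on that model.

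The catalytic subunit went the other way from its partners. Pik3ca, which encodes p110α, was at 114 CPM in control, 130.3 with LFD-iWAT-Exos, 228 with LFD-vWAT-Exos, 106 with LFD-BAT-Exos, 118 with HFD-iWAT-Exos, 108 with HFD-vWAT-Exos and 121 with HFD-BAT-Exos. LFD-vWAT-Exos was 2.00 times control (1.90 to 2.11), just at the 2-fold limit, and the other libraries spanned 106 to 130.3 CPM. Pik3cb, which encodes p110β and is not among the 10, was at 21.5 CPM with LFD-vWAT-Exos against 13.7 CPM in control, 1.57 times (1.33 to 1.86), and spanned 11.5 to 16.9 CPM elsewhere. In FPKM, Pik3ca made up 83.7% of the sum of Pik3ca, Pik3cb and Pik3cd with LFD-vWAT-Exos and 75.99% to 78.2% in the other libraries.

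Of the 10 genes, Akt1 and Akt2 differed least between LFD-vWAT-Exos and the other libraries. Akt1, the widely expressed AKT kinase, was at 355 CPM in control, 313 with LFD-iWAT-Exos, 239.98 with LFD-vWAT-Exos, 369.9 with LFD-BAT-Exos, 332 with HFD-iWAT-Exos, 359.7 with HFD-vWAT-Exos and 353 with HFD-BAT-Exos. LFD-vWAT-Exos was 0.675 times control (0.647 to 0.704), and LFD-iWAT-Exos was next lowest at 0.881 times (0.854 to 0.910). Akt2, the AKT kinase tied to glucose uptake in fat and muscle, was at 62.7 CPM in control, 64.4 with LFD-iWAT-Exos, 60.3 with LFD-vWAT-Exos, 63.7 with LFD-BAT-Exos, 65.2 with HFD-iWAT-Exos, 67.6 with HFD-vWAT-Exos and 68.3 with HFD-BAT-Exos. The interval of LFD-vWAT-Exos against control, 0.962 times (0.880 to 1.05), included 1. Reads could be split between Akt2 and the pseudogene Akt2-ps, which holds 13.3% of the 31-base words of Akt2 transcripts and had 217 to 467 counts.

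Eif4ebp1, which encodes the translation repressor 4E-BP1, was at 76.7 CPM in control, 100.1 with LFD-iWAT-Exos, 265 with LFD-vWAT-Exos, 81.4 with LFD-BAT-Exos, 77.3 with HFD-iWAT-Exos, 81.3 with HFD-vWAT-Exos and 92.7 with HFD-BAT-Exos. The LFD-vWAT-Exos library was highest at 3.45 times control (3.26 to 3.66), followed by LFD-iWAT-Exos at 1.30 times (1.23 to 1.39) and HFD-BAT-Exos at 1.21 times (1.13 to 1.29). By diet, HFD-Exos were at 0.772 times LFD-Exos from iWAT (0.723 to 0.825) and 0.307 times from vWAT (0.289 to 0.325), but 1.14 times from BAT (1.07 to 1.21).

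Over several libraries none of the 10 genes was called. In the test of AT-Exos against control, the 6 AT-Exos libraries differ in diet and depot. They are not replicates of 1 condition, and control is 1 library. In edgeR's quasi-likelihood test of diet with depot as a block (6 AT-Exos libraries, 2 residual degrees of freedom), the adjusted p-values of the 10 were 0.888 to 0.905, beside 0.0% of 13441 genes called. Irs1 was 0.58 higher in HFD on the log2 scale (SE 0.38), Irs2 was at -0.37 (SE 0.42), Pik3r1 at 0.35 (SE 0.26) and Pik3r3 at 0.68 (SE 0.53). These values mix depots that went opposite ways. Without LFD-vWAT-Exos, the value was 0.12 (SE 0.21) for Irs1, 0.21 (SE 0.13) for Irs2, 0.07 (SE 0.13) for Pik3r1 and -0.020 (SE 0.14) for Pik3r3, and HFD-vWAT-Exos then adds nothing to it. Adjusted p-values were 0.777 to 0.985 for vWAT against iWAT and 1.00 for BAT against iWAT, both with diet as a block (0.0% of 13441 genes called in each), and 1.00 for AT-Exos against control (1 of 14102 genes, 0.00709%, called). At an unadjusted p under 0.05, 73, 366, 124 and 120 genes passed in these 4 tests in edgeR, and 0 of the 10 genes did in any. DESeq2 called 8, 10, 2 and 5 genes and limma 0, 0, 0 and 1, with 0 of the 10 in each. In vWAT against iWAT, leaving out HFD-vWAT-Exos left LFD-vWAT-Exos as the only vWAT library, taken to vary like the others. Then 8 of the 10 genes passed (all but Akt1 and Akt2), beside 5623 of 13922 genes in all.

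Around these genes, 97 other symbols in 10 lists of the pathway were looked up. All were in the table, and 17 were under 1 CPM throughout, including the substrate genes Irs3 and Irs4 and the glucose transporter gene Slc2a4. In LFD-vWAT-Exos against control 25 of 79 measured were apart, 13 higher and 12 lower, with a median log2 ratio of 0.24 beside -0.04 over all genes. That share is close to the 30.6% over all genes. Scaling by library totals alone moved the all-gene median to -0.13, so the values of this library are relative to that choice by about that much. In HFD-vWAT-Exos against LFD-vWAT-Exos, 8 were higher and 11 lower of 78 measured, where 29.7% of all genes were apart. The median there was -0.22 beside 0.04 over all genes. In the comparisons that do not use LFD-vWAT-Exos, 1 to 6 of 78 to 80 were apart, beside 1.67% to 5.13% of all genes. The highest count, 6 of 80, was in LFD-iWAT-Exos against control, beside 5.09%.

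Per list, in LFD-vWAT-Exos against control, apart were 1 of 5 ligands and binding proteins (lower, median log2 ratio -0.38), the 1 other receptor measured (Igf2r, lower, -1.60), 3 of 10 substrates and adaptors (2 higher, 1 lower, 0.37) and 4 of 7 receptor inhibitors (1 higher, 3 lower, 0.45). Of the other PI3K subunits 0 of 7 were apart (median 0.33), of lipid phosphatases 1 of 5 (lower, 0.26), of AKT regulators 3 of 7 (2 higher, 1 lower, -0.01), and of the mTORC1 branch 2 of 16 (both higher, 0.10). Of other AKT targets 4 of 9 were apart (2 higher, 2 lower, 0.66) and of genes known as FOXO targets 6 of 12 (4 higher, 2 lower, 0.62). Over all genes 30.6% were apart in this comparison, and the lists were not tested against other genes. In HFD-vWAT-Exos against control 3 of 79 measured were apart, beside 1.98% of all genes. Crk was higher, and Grb2 and Inpp4b were lower. Inpp4b is named after its values were seen and had 31 counts in control and 11 with HFD-vWAT-Exos.

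**Figure D4:**
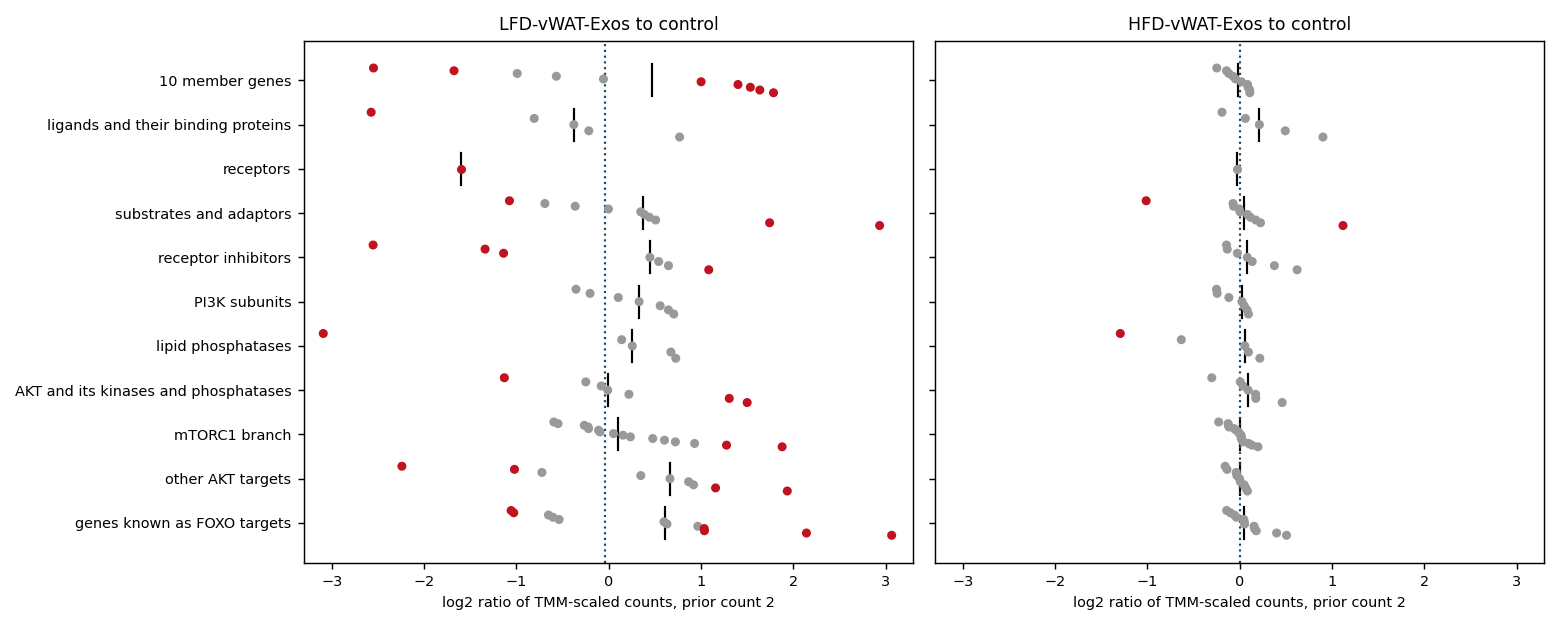
Log2 ratio to control (prior count 2) of each measured gene of the 10 genes and of the 10 other pathway lists, for LFD-vWAT-Exos (left) and HFD-vWAT-Exos (right), 1 library each. Red points were apart, black ticks are list medians and the dotted line is the median of all genes, at -0.04 on the left and 0.00 on the right. The lists spread in both directions on the left and gather near 0 on the right, where Grb2, Crk and Inpp4b were apart.

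Genes of the ligand side did not move one way. Igf1, the growth factor that binds IGF1R, was at 15.1 CPM with LFD-vWAT-Exos against 90.5 CPM in control, 0.167 times (0.144 to 0.194), and at 79.2 to 105 CPM with the other exosomes. Igf2r, which clears IGF2, was at 399 CPM against 1207 CPM, 0.330 times (0.321 to 0.340). Igf2, a fetal growth factor, was at 11.2 CPM in control and 19.2 to 55.7 CPM with exosomes, highest with HFD-BAT-Exos at 4.96 times control (4.33 to 5.71), but 62.8% of its exon bases lie in Gm49394 and its counts are uncertain. Igfbp4, an IGF-binding protein, was highest with LFD-iWAT-Exos at 162 CPM, 2.78 times control (2.61 to 2.96).

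Among adaptors, Sh2b2, which binds the activated insulin receptor, was at 62.7 CPM with LFD-vWAT-Exos against 8.12 CPM in control, 7.73 times (6.57 to 9.14). Crk, an adaptor downstream of tyrosine kinases, was at 281 CPM with LFD-vWAT-Exos and 182 CPM with HFD-vWAT-Exos, against 64.6 to 83.7 CPM in the other 5 libraries. Grb2, which links receptors to RAS, showed another split, at 33.9 CPM with HFD-iWAT-Exos and 37.95 CPM with HFD-vWAT-Exos against 76.7 to 97.7 CPM in the rest. Of the inhibitors, Socs1 was at 1.33 CPM with LFD-vWAT-Exos (17 counts) against 6.77 to 8.71 CPM, Enpp1 at 4.29 CPM against 7.43 to 14.3 CPM, and Grb14 at 29.3 CPM against 58.4 to 75.3 CPM. Trib3, Ptpn1 and Ptpn2, also on the list of inhibitors, went the other way and were highest with LFD-vWAT-Exos. Trib3 was at 58.9 CPM there against 27.7 to 35.6 CPM, and Ptpn1 at 58.7 CPM against 36.6 to 45.7 CPM. Ptpn2 was at 79.99 CPM against at most 74.5 CPM. They are named for their direction, not for the size of their ratios. Socs3, a cytokine-induced inhibitor of IRS signalling, was highest with LFD-iWAT-Exos, at 259.5 CPM and 3.43 times control (3.25 to 3.62). With LFD-vWAT-Exos it was at 103 CPM, the lowest Socs3 level of the 6 AT-Exos libraries, though above the 75.7 CPM of control. Socs3 was also 2.03 times control with HFD-iWAT-Exos (1.91 to 2.16).

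Downstream of AKT, genes were apart in both directions with LFD-vWAT-Exos. Of genes known as FOXO targets, Bcl6, a transcriptional repressor, was at 184 CPM against 21.9 CPM in control, 8.41 times (7.62 to 9.29), and Ccng2, a cyclin of resting cells, at 548 CPM against 124 CPM, 4.42 times (4.23 to 4.62). Sesn3, a stress-response gene of the same list, was at 63.4 CPM against 132 CPM, 0.481 times (0.444 to 0.520), and Klf15 at 0.702 CPM (9 counts) against 1.53 CPM. Among the FOXO genes themselves, Foxo3 was 2.23 times control (2.15 to 2.32), and Foxo6 was at 1.33 CPM (17 counts) against 6.63 CPM. Foxo4, at 52.1 CPM against 28.5 CPM in control, fell short of the 2-fold limit. It is named for its log2 ratio of -1.03 in HFD-vWAT-Exos against LFD-vWAT-Exos. Tbc1d4, which holds glucose transporters inside the cell until AKT phosphorylates it, was 3.85 times control (3.26 to 4.56). Of the mTORC1 branch, Ddit4, an inhibitor of mTORC1, was 3.68 times control (3.48 to 3.89) and Eif4b, a translation factor, 2.42 times (2.38 to 2.47). Rictor, a subunit of the mTORC2 complex that phosphorylates AKT, was 2.48 times control (2.33 to 2.63), and Ppp2r5b, a subunit of a phosphatase that acts on AKT, was 0.456 times (0.399 to 0.520).

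By level over all 7 libraries, the genes most like Irs1 (smallest root mean square difference of centred log2 CPM) were Arhgap20 (0.07), Zfp521 (0.08) and Notch1 (0.08). Those most like Irs2 were Ythdc1 (0.04), Rsbn1l (0.05) and Slc23a2 (0.06). Those most like Pik3r1 were Inpp5b (0.05), Aplf (0.05) and Adam19 (0.06), and those most like Pik3r3 were Maged2 (0.07), Thy1 (0.08) and Pcca (0.09). Each was chosen among 9351 genes with a mean of at least 10 CPM, and the likeness rests largely on the LFD-vWAT-Exos library. Over the other 6 libraries alone, Irs1 was most like Ldlrad3 (0.04), Tef (0.05) and Pappa (0.06), none of which was on the list over 7.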

How the data were processed

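Paired reads were obtained for 7 libraries, each a group of its own. According to the study's methods, the authors trimmed with fastp, aligned with HISAT2 and assembled and counted with StringTie and gffcompare. The methods name a human reference, and the mouse build, annotation and tool versions are not given in the sources used here. The deposited table holds raw counts per gene and FPKM, which the authors scaled to library total and gene length. Dividing count by FPKM gave 1 fixed length per gene.

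Counts were scaled with TMM factors (edgeR 4.0.16 in R 4.3.3). Between single libraries the ratio has an exact Clopper-Pearson 95% interval, for counting error only, because reads without molecular identifiers are not independent molecules. It was tested at 1 CPM or more in either library. No p-value was given between single libraries. A count of 0 allows up to 3 counts, or 0.122 to 0.234 CPM. Fits across libraries used edgeR's quasi-likelihood test with Benjamini-Hochberg adjustment at 0.05, with DESeq2 1.42.0 and limma 3.58.1 alongside. These p-values measure the spread between the libraries at hand. Scripts were tested on simulated data. Python 3.11.15 and SciPy 1.17.1 were used.

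The members, the 10 pathway lists and the tests were chosen with earlier results of these data known. Named were, per list, up to 4 genes with the largest log2 ratio among those apart by diet within a depot or from control and with at least 50 counts in 1 library, plus Pik3r2 and Pik3cb, and exceptions are stated. Alternatives were other scalings, filters, prior counts and folds, FPKM in place of counts, and leaving out each library. Some genes of the lists are not reported here by name. Sequences came from RefSeq (GRCm38.p6) and GENCODE M21.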

Additional observations from a re-analysis of the deposited data

Results flagged for a closer look

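Among the 6 AT-Exos libraries the LFD-vWAT-Exos library stood far from the nearest other library in 7 of the 10 genes. Its gap to the nearest library was 0.905 of the whole range for Insr, 0.857 for Igf1r, 0.812 for Irs2, 0.730 for Pik3r1, 0.931 for Pik3r3, 0.729 for Pik3ca and 0.790 for Eif4ebp1, each above Dixon's 95% critical value for 6 samples. The gaps were taken on log CPM after adding the prior count. Among replicates of 1 condition, chance alone gives such a gap in about 1 in 20 groups. The 6 libraries differ in diet and depot and are not such replicates, so that rate need not hold here. The 7 gaps also come from a single library. The share of all genes with such a gap was not computed, so whether these genes exceed it cannot be told. Irs1 at 0.429, Akt1 at 0.616 and Akt2 at 0.436 stayed below the critical value. The same library had the fewest counts and the lowest mitochondrial share, and their part in these gaps was not tested.

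In 6 genes the ratio of HFD-Exos to LFD-Exos went one way in vWAT and the other way in another depot, with both counting intervals excluding equal levels. The difference itself was not tested, since each depot and diet has 1 library. All of these reversals rest on the same LFD-vWAT-Exos library. The share of all genes with such a reversal was not computed, so the count has no background. The log2 ratio of Irs1 was 1.53 in vWAT and -0.33 in BAT. For Irs2 it was -1.53 in vWAT, 0.24 in iWAT and 0.18 in BAT. For Pik3r1 it was 0.94 in vWAT and -0.11 in BAT, and for Pik3ca -1.08 in vWAT and 0.19 in BAT. For Akt1 it was 0.58 in vWAT and -0.07 in BAT, and for Eif4ebp1 -1.70 in vWAT and 0.19 in BAT.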

How the results depend on the processing

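No analysis of paired replicates was possible because each group has 1 library, and depot or diet was the block in the tests of diet and depot. Of the recomputed counts of genes apart, 113 stayed within 1.5 times the reported count and 3 did not. In LFD-iWAT-Exos against control the count became 0 on FPKM plus 1. With a fold of 1.5 it became 8 in LFD-vWAT-Exos against LFD-iWAT-Exos and 1 (Irs1) in LFD-BAT-Exos against LFD-iWAT-Exos. Of the recomputed log2 ratios, 661 moved by less than their counting error and 49 by more, and 0 of the 27 apart changed sign. TMM over the 6 libraries without LFD-vWAT-Exos was chosen after seeing the data, and it changed the sign of 1 of 110 ratios.

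Leaving out each library in turn, the genes called in vWAT against iWAT ranged from 0 to 8 of 10, with 8 without HFD-vWAT-Exos, and stayed at 0 in the other 3 tests. Leaving out the control was not run, since no control is then left. The log2 difference for diet ranged from 0.12 to 1.04 for Irs1, from -0.69 to 0.21 for Irs2, from 0.07 to 0.59 for Pik3r1 and from -0.0202 to 1.13 for Pik3r3. With iWAT and BAT only, it was 0.21 for Irs2 and -0.0188 for Pik3r3, each reversed, and none of these values passed the test.

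Counts in place of FPKM, which leave out gene length, gave an Irs1 to Irs2 ratio of 3.01 in control, 1.56 with LFD-iWAT-Exos, 0.302 with LFD-vWAT-Exos, 3.07 with LFD-BAT-Exos, 1.97 with HFD-iWAT-Exos, 2.52 with HFD-vWAT-Exos and 2.14 with HFD-BAT-Exos. FPKM plus 1 gave 0.164 with LFD-vWAT-Exos. In the same order of libraries, the Pik3r1 to Pik3r3 ratio was 12.4, 12.8, 37.0, 14.8, 15.9, 14.3 and 13.4 on counts and 5.34, 5.30, 8.42, 6.13, 6.50, 5.95 and 5.58 on FPKM plus 1. The ratio of 2 genes in 1 library therefore depends on the lengths used. Depth limits Pik3r3 with LFD-vWAT-Exos most, at 65 counts.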
